A study of Mus musculus with 12 samples.

Results

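Complexes II to V are the enzymes of the inner mitochondrial membrane that follow complex I in oxidative phosphorylation, and the transcripts of their nuclear-encoded subunits are described here in microglia taken from mouse brains after stroke. The members were taken by name: every protein-coding row of the count table whose gene symbol was Sdha, Sdhb, Sdhc, Sdhd or Cyc1, or began with Uqcr, Cox4 to Cox8 or Atp5. This gave 47 of the 53801 genes in the table, with 4 in complex II, 9 in complex III, 18 in complex IV and 16 in complex V. All 47 were among the 35674 genes that passed the filter on low counts. Cox7a2l, which encodes a factor that joins complexes III and IV into supercomplexes, and Atp5s, which encodes the ATP synthase coupling factor B, carry these names but are not subunits of the complexes proper.

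The samples were bulk RNA-seq libraries of P2RY12+ microglia, isolated by magnetic sorting from mice of 2 to 3 months. The cells were taken at 72 h after a transient occlusion of the left middle cerebral artery that lasted 60 min. The study used both sexes and does not give the sex of the mice behind each library. Both genotypes were Cx3cr1-CreER+/-. WT mice had 2 intact copies of the targeted gene, and conditional knockout (cKO) mice had 2 floxed copies, which Cre recombinase removes from cells that express Cx3cr1. Each genotype was sampled in the contralateral (CL) and the ipsilateral (IL) hemisphere with 3 libraries per group, 12 in all. The Cre allele, tamoxifen at 75 mg/kg on 5 days ended at least 30 days before surgery, and the stroke itself were shared by all 4 groups, so that CL is the non-lesion side of a brain with a stroke and not a brain without one. Cx3cr1 is also active in monocytes and in other brain macrophages, and tamoxifen-induced Cre marks long-lived cells for longer than blood monocytes, which are renewed. Libraries are named here by group and by a letter that stands for the number in the header of their column (A, B and C in WT, D, E and F in cKO), and values of a group are always given in that order.

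Electrons from succinate enter the chain at complex II (succinate dehydrogenase), which is also an enzyme of the citric acid cycle. Complex III (the cytochrome bc1 complex) passes electrons from ubiquinol to cytochrome c, complex IV (cytochrome c oxidase) passes them on to oxygen, and complex V (ATP synthase) uses the proton gradient built by the chain to make ATP. Complex II is encoded in the nucleus alone, whereas complexes III, IV and V also hold subunits from the mitochondrial genome. Resting microglia are known to use oxidative phosphorylation, and macrophage-lineage cells shift between it and glycolysis when they are activated.

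Many promoters of respiratory chain genes are known to hold binding sites of NRF1, of the ETS factor GABP (also called NRF2) and of YY1. RefSeq (GRCm38.p6) gave a window from 250 bases before to 50 bases after the start for 36 of the 47 members. The letters GCATGCGC (NRF1 core, either strand) were in 7 of these 36 windows (19.4%) and in 3.05% of the windows of all 27025 genes. The letters CCGGAAG (ETS core, either strand) were in 12 of 36 (33.3%) against 9.93% of all windows, and AAGATGGC (YY1, either strand) in 3 of 36 (8.33%) against 3.19%. At least 1 of the motifs was in 16 windows, 20 held none, and 5 held both the NRF1 and the ETS letters (Atp5k, Atp5l, Cox6a1, Sdhb and Uqcr11). A match to these letters is a description of the sequence and not a bound site. The windows of 4 members that were higher in IL than in CL of cKO, all of which hold a motif, are printed here from 5′ to 3′ on the strand of the gene, with motif letters in capitals. They are Atp5k at chr5:108434350-108434649, with overlapping NRF1 letters on both strands (GCGCATGCGC) and the ETS letters on the opposite strand (CTTCCGG), Uqcrh at chr4:116075021-116075320 and Cox6b1 at chr7:30626065-30626364, each with the ETS letters on the opposite strand, and Atp5j2 at chr5:145191492-145191791, with the YY1 letters. All 4 genes lie on the minus strand.
Atp5k: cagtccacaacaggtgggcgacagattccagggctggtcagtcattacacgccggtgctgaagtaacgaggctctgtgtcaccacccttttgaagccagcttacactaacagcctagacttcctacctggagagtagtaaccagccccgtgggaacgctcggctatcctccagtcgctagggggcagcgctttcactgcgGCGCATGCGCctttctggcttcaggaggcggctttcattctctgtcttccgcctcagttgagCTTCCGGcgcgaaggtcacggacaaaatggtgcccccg
Uqcrh: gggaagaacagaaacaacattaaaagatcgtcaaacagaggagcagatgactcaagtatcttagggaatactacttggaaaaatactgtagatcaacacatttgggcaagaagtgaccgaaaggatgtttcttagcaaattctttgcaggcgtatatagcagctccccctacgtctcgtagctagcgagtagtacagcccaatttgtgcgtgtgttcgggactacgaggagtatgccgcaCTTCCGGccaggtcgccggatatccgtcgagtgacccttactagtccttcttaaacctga
Cox6b1: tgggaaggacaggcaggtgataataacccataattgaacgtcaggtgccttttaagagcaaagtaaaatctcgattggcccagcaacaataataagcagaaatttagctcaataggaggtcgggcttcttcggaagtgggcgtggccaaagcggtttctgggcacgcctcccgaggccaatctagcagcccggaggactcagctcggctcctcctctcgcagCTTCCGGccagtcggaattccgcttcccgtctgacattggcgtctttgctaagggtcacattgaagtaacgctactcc
Atp5j2: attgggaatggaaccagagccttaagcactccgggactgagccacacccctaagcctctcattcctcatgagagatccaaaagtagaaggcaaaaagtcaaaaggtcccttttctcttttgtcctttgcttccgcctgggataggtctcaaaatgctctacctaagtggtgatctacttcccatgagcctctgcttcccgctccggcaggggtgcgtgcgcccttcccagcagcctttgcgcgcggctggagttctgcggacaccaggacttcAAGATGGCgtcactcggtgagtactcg

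Library totals ran from 2091512 counts (WT CL C) to 47256174 (cKO IL E), with 9743603 to 20349883 in cKO CL and 43961276 to 47256174 in cKO IL. Members took between 0.0776% and 0.44% of a library's counts, and 15 of the 47 had 0 counts in WT CL C, 4 in WT CL A and 1 in WT IL C. A count of 0 allows up to 3 counts, or 0.88 CPM in WT CL C (CPM are counts scaled to the size of each library), a limit that covers counting error only. Microglial markers were present throughout, at a summed 4099 to 10323 CPM over 10 genes. Their sum was 6597, 7222 and 10323 CPM in CL and 9339, 9032 and 4679 CPM in IL of WT. In cKO it was 4865, 9051 and 7478 CPM in CL and 7332, 4099 and 7718 CPM in IL. The share of counts on olfactory, vomeronasal and taste receptor genes, which microglia are not known to use, differed between libraries. It was 0.0396% to 0.0586% in cKO IL against 0.275% to 0.905% in cKO CL. In WT it was 0.208%, 0.584% and 1.07% in CL and 0.204%, 0.161% and 0.0239% in IL. WT IL C had the lowest share of the 12 libraries, and the part of this share in the results was not tested.

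The summed level of the 47 members was several-fold higher in IL than in CL libraries of cKO, whereas in WT the IL libraries differed widely among themselves. The sum was 1411, 599.9 and 658 CPM in CL and 900.3, 1575 and 6105 CPM in IL of WT. In cKO it was 612, 900.8 and 952 CPM in CL and 4784, 4256 and 4776 CPM in IL. All cKO IL libraries lay above all CL libraries, WT IL C lay above every other library, and WT IL A lay within the range of the CL libraries. Complex V held 48.7% to 57.6% of this sum in the 12 libraries, complex IV 17.7% to 26.5%, complex III 11.7% to 15.2% and complex II 9.63% to 16.1%. These proportions varied little beside the total, which differed 10-fold between the lowest and the highest library. In bulk samples, a larger share of cells with high levels and more RNA per cell cannot be told apart.

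**Figure D1:**
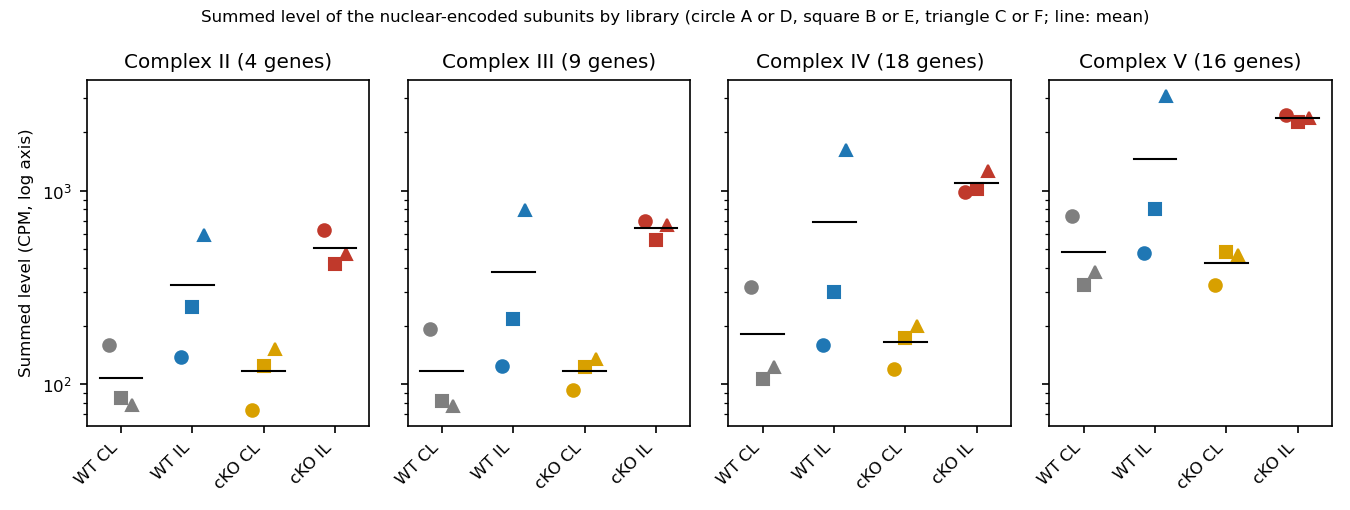
Summed CPM of the members of each complex (y axis, log scale) in the 12 libraries, with 1 symbol per library and the group mean as a line. In each complex the cKO IL points sit together above all CL points, and the WT IL points spread from the CL range to the level of cKO IL or above it.

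Whether stroke changed these transcripts was read from IL over CL within each genotype, with edgeR's quasi-likelihood test and Benjamini-Hochberg adjustment over all genes (two-sided, adjusted p under 0.05). In cKO, 17 of the 47 members were higher in IL, at log2 2.13 to 3.99, and 0 were lower. The count was 9 with RLE scaling, 2 with total-count scaling (median 1.41) and 0 with TMM from genes of at least 50 CPM (median 1.43). The background was 2.94% of all genes tested called higher and 0.513% called lower, and 10.1% of the 9875 other protein-coding genes with a mean of at least 10 CPM were called higher. The median log2 of the members was 2.27, against −1.33 for all genes tested and 0.73 for those protein-coding genes. Of the 47, 39 had every cKO IL library above every cKO CL library (background 18.5%), 2 had every IL library below (Cox7b2 and Cox6b2, background 35.9%) and 6 overlapped. At an unadjusted p under 0.05, 37 members were higher (background 10.5%) and 0 lower, and DESeq2 called 28 higher (background 5.41%). Total-count scaling also turned the split over all genes, from 1050 higher and 183 lower to 301 higher and 1127 lower. The calls, of members and of other genes alike, rest on the 3 cKO CL libraries together. With cKO CL D, E or F left out, 0 members were called, where 0%, 0.0971% and 0.0857% of all genes were called higher, and the members' lowest adjusted p was then 0.0778. Without cKO IL D, E and F, 6, 10 and 7 members were called (all genes 0.766%, 1.27% and 1.25%). Without WT CL A or WT CL C, 37 and 38 were called (all genes 6.61% and 10.8%), and without WT IL A or WT IL C, 26 and 27 (all genes 3.78% and 3.83%). The median stayed between 2.20 and 2.65 over all libraries left out. With all libraries thinned to the smallest total, 0 of 44 members tested were called, and 0.866% of all genes. A block on the numbers in the column headers, which CL and IL libraries share, called 14 members (all genes 1.97%). It lost Cox6b1, Atp5a1, Atp5c1, Atp5j2 and Atp5o, at adjusted p from 0.0525 to 0.0728, and gained Cox5b (0.0411) and Atp5e (0.0427).

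In WT, 1 of the 47 members was called higher in IL (Uqcrfs1) and 0 lower, where 0.538% of all genes were called higher and 0.0701% lower. The median log2 of the members was 1.53, against −0.31 for all genes and 0.59 for the more abundant protein-coding genes. Without overlap between the hemispheres, 7 members were higher in WT IL (Uqcrfs1, Atp5o, Cox4i1, Sdhc, Sdhb, Cox7a2 and Cox7c), against a background of 10.3%. DESeq2 called 7 members higher (background 3.75%), and 27 members were higher and 0 lower at an unadjusted p under 0.05 (background 9.53%). The WT median rested on WT IL C. Without that library it was 0.49, with 0 members called (all genes 0.0127% higher) and 2 at an unadjusted p under 0.05 (share of all genes not computed). Without WT CL A or without WT IL A, 11 members were called (all genes 2.43% and 2.46% higher). Without WT CL B, cKO CL E or cKO CL F, 0 were called (all genes 1.14%, 0.358% and 0.348%). With the block on header numbers 0 were called as well (all genes 0.0028%).

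The difference between the 2 stroke responses was tested as an interaction. Its median over the members was log2 0.79 towards the larger response in cKO (all genes −0.48), and 36 of 47 were positive. No member passed (0% of all genes were called in either direction), 0 members reached an unadjusted p under 0.05 (background 0.827% higher), and DESeq2 and limma-voom with quality weights called 0. The lowest p was that of Atp5f1 (log2 1.76 ± 0.91, unadjusted p = 0.0644). The call of 17 members in cKO and 1 in WT is thus not shown to be a difference between the genotypes. Without WT IL C the median was 1.57 and 23 members reached an unadjusted p under 0.05, still with 0 called (0% of all genes). The share of all genes at that unadjusted p was not computed for this fit, so the 23 have no background.

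**Figure D2:**
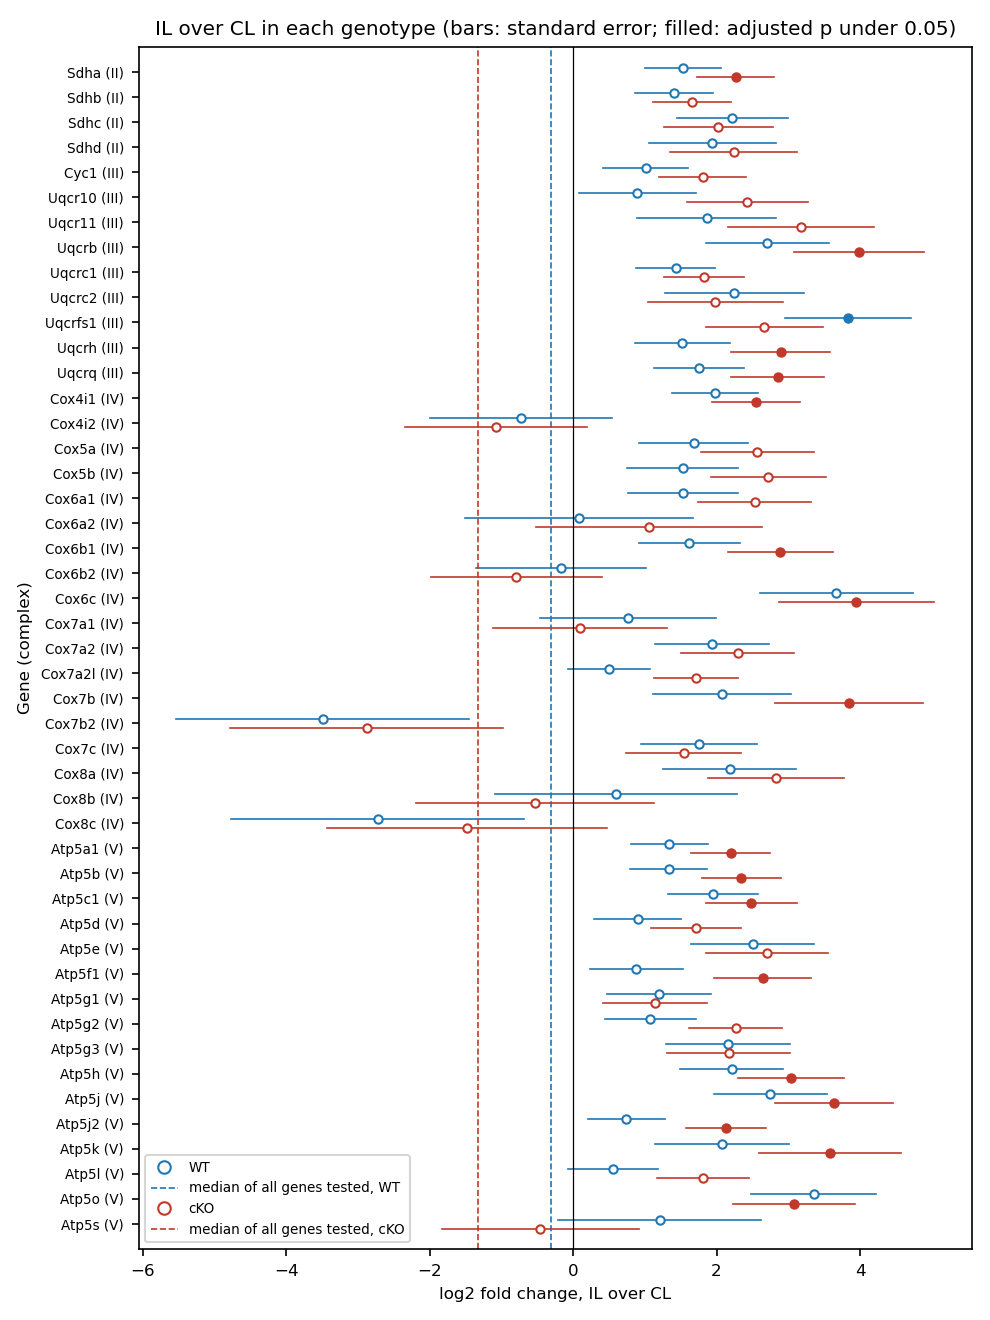
Log2 fold change of IL over CL for each of the 47 members (x axis) in WT and in cKO, with bars of 1 SE, filled points for an adjusted p under 0.05, and dashed lines at the medians of all genes tested. In cKO 41 of 47 points and in WT 43 of 47 lie above 0, with 17 filled in cKO and 1 in WT.

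Genotype was compared within each hemisphere. In CL, 0 members were called higher or lower in cKO by edgeR (background 0% in each direction), DESeq2 or voom, the median log2 was 0.01 against 0.23 for all genes, and 25 of 47 were positive. Uqcrfs1 (log2 2.06 ± 0.83, unadjusted p = 0.0206) was the 1 member at an unadjusted p under 0.05 (background 3.28%). Uqcrfs1 and Atp5o were higher without overlap (background 9.27%), Atp5j2 lower (background 1.38%), and 44 overlapped. The sign of this median was not stable, being −0.11 with RLE scaling and −0.20 to 0.61 with single libraries left out.

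In IL, 43 of the 47 members were higher in cKO than in WT, with a median log2 of 0.71 (all genes −0.24, the more abundant protein-coding genes 0.29). None was called by edgeR (background 0% in each direction) or DESeq2, 0 reached an unadjusted p under 0.05 (background 0.334% higher), and all 47 overlapped between the groups, where 4.83% of all genes were higher without overlap. The lowest p was that of Atp5b (log2 1.01 ± 0.53, unadjusted p = 0.0701), followed by Atp5j2 (1.01 ± 0.54) and Uqcrq (1.06 ± 0.61). Voom with quality weights, which gave WT IL B a weight of 8.16 and WT IL C a weight of 0.314, called 33 members higher in cKO (background 7.23%). Leaving out WT IL C moved the median to 1.78 and brought 28 members to an unadjusted p under 0.05, with 0 called (0% of all genes). The share of all genes at that unadjusted p was not computed for this fit, so the 28 have no background.

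**Figure D3:**
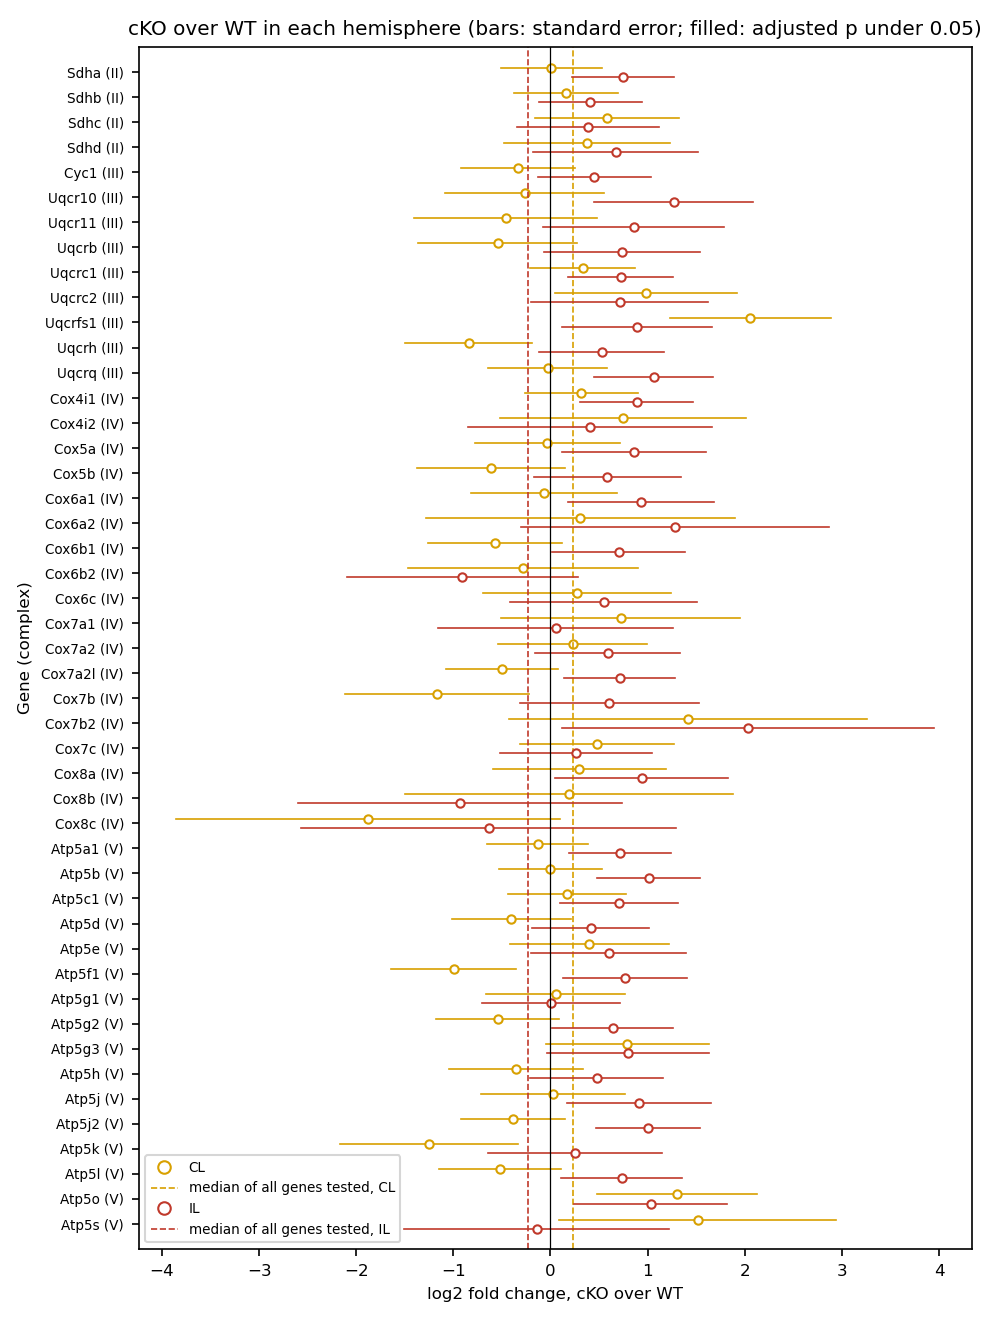
Log2 fold change of cKO over WT for each of the 47 members (x axis) in CL and in IL, with bars of 1 SE and dashed lines at the medians of all genes tested. In IL 43 of 47 points and in CL 25 of 47 lie above 0, and none is filled because no adjusted p was under 0.05.

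The WT IL libraries stood in 1 order for most members. WT IL A was below WT IL B and that below WT IL C in 39 of 47, and WT IL A was the lowest of the 6 IL libraries for 38. WT IL A and B were both below every cKO IL library for 38 members, whereas WT IL C was above every cKO IL library for 25, within their range for 19 and below it for 3. Over the 37 members with a mean of at least 10 CPM, WT IL C stood at a median 1.23 times the cKO IL mean, from 0.66 for Cox7a2l to 2.35 for Atp5k. The share of counts on olfactory, vomeronasal and taste receptor genes fell in that order, at 0.204%, 0.161% and 0.0239% in WT IL, and its part was not tested. Ccr2, the chemokine receptor of inflammatory monocytes, stood in the same order as the members in WT IL. It was at 16.7, 10.5 and 12.3 CPM in CL and 8.16, 103 and 412 CPM in IL of WT. In cKO, Ccr2 was at 16.1, 8.23 and 31.2 CPM in CL and 726, 285 and 136 CPM in IL. The sum of 9 monocyte markers, most of it Fn1, was 6061, 138 and 274 CPM in CL and 559.9, 3569 and 7638 CPM in IL of WT. In cKO this sum was 243 to 638 CPM in CL and 7087 to 18042 CPM in IL. Of the 9, 5 were called higher in cKO IL (Ccr2, Chil3, F13a1, Ms4a4c and Fn1) and 2 in WT IL (Chil3 and Ms4a4c), and Ms4a4c was at 0 in every WT CL library. The block lost both WT calls. For IL over CL, 6 of the 9 had a log2 above 0 in WT and 9 in cKO. Of the other marker genes, 5 marked border-associated macrophages. Pf4 was called higher in cKO IL (log2 2.93 ± 0.83, adjusted p = 0.0499, lost with the block at adjusted p = 0.146), whereas Cd163 was lower in every cKO IL than in every cKO CL library without passing (log2 −1.39 ± 0.55, adjusted p = 0.14), and 3 of the 5 had a log2 above 0. The neuronal markers summed to 12.7 to 20.9 CPM in cKO IL against 57.0 to 97.0 CPM in cKO CL. In WT CL, markers of endothelial and mural cells summed to 921, 118 and 76.3 CPM. Those of astrocytes summed to 291.5, 63.7 and 74.8 CPM there, and those of oligodendrocytes to 248, 79.9 and 538 CPM. The part of monocytes and of the other cells in the members' levels was not tested.

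**Figure D4:**
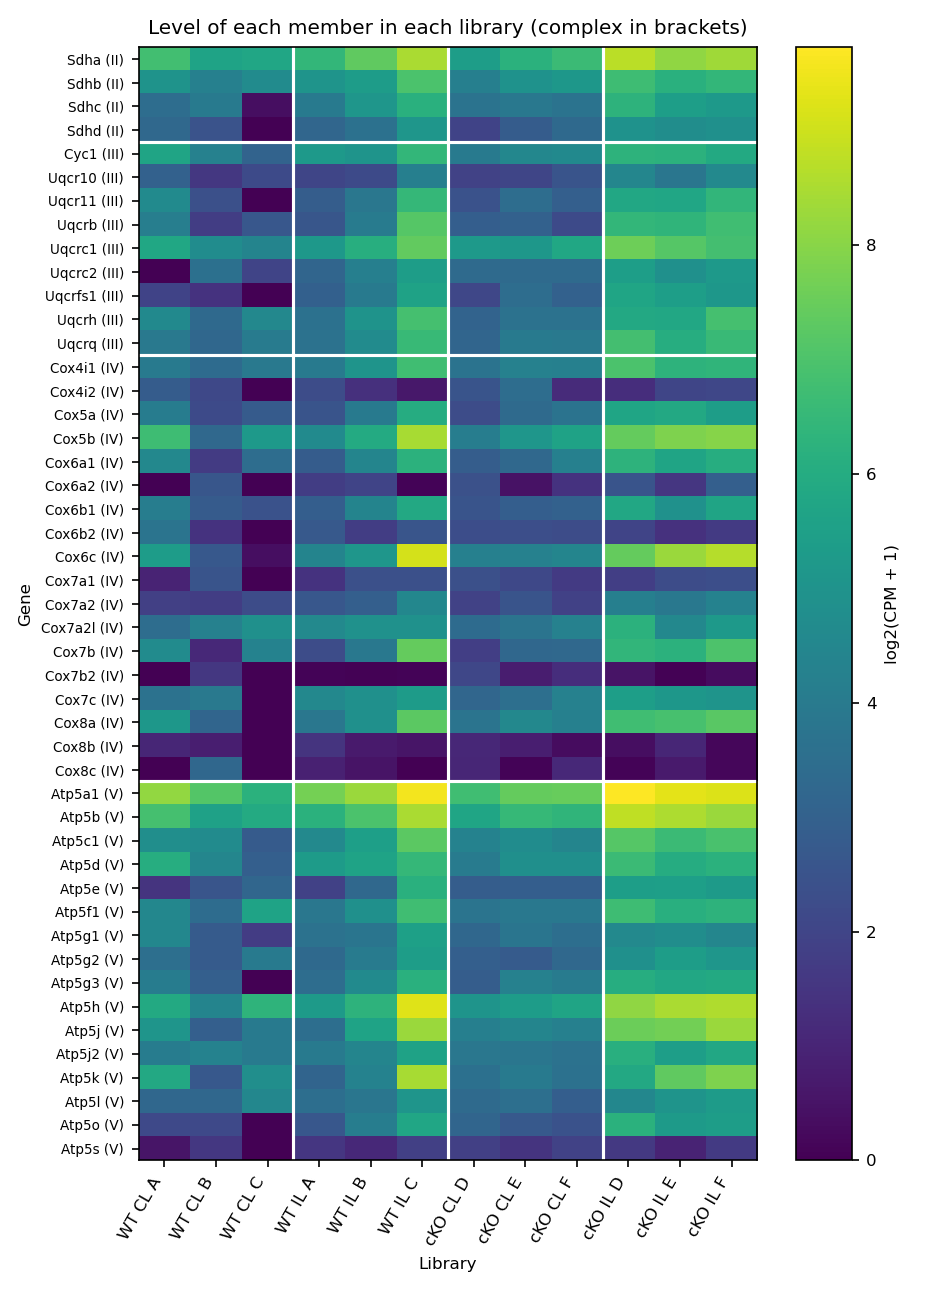
Level of the 47 members (rows, by complex) in the 12 libraries (columns, by group), with log2(CPM + 1) as the colour scale and white lines between complexes and groups. The 3 cKO IL columns and WT IL C are brighter than the other columns for most rows. The paralogues Cox4i2, Cox6a2, Cox6b2, Cox7a1, Cox7b2, Cox8b and Cox8c and the factor Atp5s do not share this pattern.

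Complex II has 2 catalytic subunits and 2 membrane anchors. Sdha, the flavoprotein that oxidises succinate (chr13:74322254-74350280, mm10), was at 109, 48.3 and 53.4 CPM in CL and 84.7, 164 and 360.04 CPM in IL of WT. In cKO, Sdha was at 41.5, 73.8 and 96.9 CPM in CL and 421, 277.6 and 322 CPM in IL. Every cKO IL library was above every cKO CL library, at log2 2.27 ± 0.54, adjusted p = 0.0282 (edgeR, as for all adjusted p given here), and WT IL overlapped WT CL because WT IL A was below WT CL A (log2 1.53 ± 0.53, adjusted p = 0.145). Sdhb, the iron-sulfur subunit, was at 31.1, 17.7 and 24.9 CPM in CL and 31.3, 40.4 and 124 CPM in IL of WT. In cKO, Sdhb was at 17.2, 30.3 and 34.9 CPM in CL and 103, 70.3 and 86.6 CPM in IL. Both hemispheres separated without overlap in each genotype, by a narrow margin in WT, and Sdhb did not pass in either (log2 1.66 ± 0.55, adjusted p = 0.0878 in cKO and log2 1.40 ± 0.54, adjusted p = 0.184 in WT). The anchor Sdhc was at 10.2, 14.5 and 0.293 CPM in CL and 14.8, 34 and 70.2 CPM in IL of WT. In cKO, Sdhc was at 12.2, 13.8 and 12.1 CPM in CL and 76.2, 42.8 and 36.2 CPM in IL. The hemispheres again did not overlap in either genotype (log2 2.03 ± 0.76, adjusted p = 0.1246 in cKO and log2 2.22 ± 0.77, adjusted p = 0.144 in WT). The other anchor, Sdhd, had group means of 4.48 ± 4.4 CPM in CL and 17.8 ± 14 CPM in IL of WT, and 6.004 ± 3.05 CPM in CL and 28.4 ± 2.1 CPM in IL of cKO, at log2 2.24 ± 0.88 in cKO. In the interaction, Sdha leaned towards cKO (log2 0.74 ± 0.73) and Sdhc towards WT (−0.20 ± 1.04), neither past the test.

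In complex III, 3 of the 5 small subunits and 0 of the 4 core and redox subunits were called in cKO (all genes 2.94%). The difference between these parts was not tested. Uqcrb, a ubiquinone-binding small subunit (chr13:66900617-66905378), was at 16.9, 2.4 and 5.28 CPM in CL and 5.07, 15.7 and 143 CPM in IL of WT. In cKO, Uqcrb was at 6.5, 7.08 and 3.59 CPM in CL and 85.8, 81.1 and 106 CPM in IL. Its cKO IL libraries stood more than 10-fold above the cKO CL libraries with no overlap (log2 3.99 ± 0.91, adjusted p = 0.022), and WT IL C was above them all. Uqcrq was at 14.2, 8.55 and 15.6 CPM in CL and 11.5, 24.9 and 93.1 CPM in IL of WT. In cKO, Uqcrq was at 7.91, 15.1 and 14.4 CPM in CL and 111, 64.9 and 94.6 CPM in IL. All of its cKO IL libraries were above all of its cKO CL libraries (log2 2.85 ± 0.65, adjusted p = 0.022). Uqcrh, the hinge protein between cytochrome c1 and cytochrome c, was at 23.8, 8.996 and 22.3 CPM in CL and 11.3, 30.8 and 116 CPM in IL of WT. In cKO, Uqcrh was at 7.5, 11.6 and 11.6 CPM in CL and 57.3, 56.6 and 114 CPM in IL. Likewise, the cKO hemispheres did not overlap (log2 2.90 ± 0.69, adjusted p = 0.0281). In CL, Uqcrh had the lowest p of complex III among members with a lower level in cKO (log2 −0.84 ± 0.65, adjusted p = 0.9996), with WT CL B inside the cKO range, and in the interaction the lowest p of complex III towards cKO (log2 1.37 ± 0.92). Uqcr10 and Uqcr11 did not pass in cKO (log2 2.43 ± 0.85, adjusted p = 0.103 and log2 3.18 ± 1.01, adjusted p = 0.0783), although neither overlapped.

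Uqcrfs1, the Rieske iron-sulfur protein that takes electrons from ubiquinol (chr13:30540308-30545362), was the 1 member called in WT. It was at 2.83, 1.65 and 0 CPM in CL and 6.99, 14.8 and 48.2 CPM in IL of WT. In cKO, Uqcrfs1 was at 3.15, 10.05 and 7.15 CPM in CL and 51.7, 43.3 and 34.3 CPM in IL. In each genotype all IL libraries were above all CL libraries, and the WT CL libraries were lowest, with raw counts of 38, 11 and 0. The WT response was log2 3.84 ± 0.88, adjusted p = 0.0467, and the cKO response was smaller and did not pass (log2 2.67 ± 0.82, adjusted p = 0.0688). The WT call was lost without WT IL C (adjusted p = 0.345), WT CL B (0.0667), cKO CL E (0.0524) or cKO CL F (0.0523) and with the block on header numbers (0.208), and the interaction leaned towards WT (log2 −1.17 ± 1.11). The core protein Uqcrc1 was at 54.2, 25.2 and 19.95 CPM in CL and 35.8, 66.8 and 167 CPM in IL of WT. In cKO, Uqcrc1 was at 36.5, 34.9 and 54.2 CPM in CL and 190.5, 141 and 113 CPM in IL. Cyc1, cytochrome c1, was at 49.98, 18.1 and 7.63 CPM in CL and 36.2, 31.4 and 86.8 CPM in IL of WT. In cKO, Cyc1 was at 15.3, 21.7 and 23.4 CPM in CL and 77, 76 and 58.3 CPM in IL. Both were higher in every cKO IL than in every cKO CL library without passing (log2 1.83 ± 0.56, adjusted p = 0.0674 and log2 1.81 ± 0.60, adjusted p = 0.0911), and in WT the hemispheres overlapped for both. Uqcrc2, the other core protein, had group means of 4.68 ± 5.75 CPM in CL and 22.2 ± 17.2 CPM in IL of WT, and 9.19 ± 0.024 CPM in CL and 36.3 ± 7.45 CPM in IL of cKO (log2 1.98 ± 0.94, adjusted p = 0.201 in cKO).

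Complex IV held 10 widely expressed subunits, 7 paralogues known from particular tissues, and Cox7a2l. In cKO, 4 of the 10 widely expressed subunits were called higher in IL and all 10 were higher without overlap, whereas of the 7 paralogues 0 were called and 0 were higher without overlap. Of all genes, 2.94% were called higher and 18.5% were higher without overlap. Cox4i1, the largest nuclear-encoded subunit (chr8:120668222-120674207), was at 14.6, 9.45 and 14.4 CPM in CL and 15.1, 31.7 and 105 CPM in IL of WT. In cKO, Cox4i1 was at 11.9, 18.3 and 17.6 CPM in CL and 124, 76.4 and 80.2 CPM in IL. The hemispheres did not overlap in either genotype (log2 2.55 ± 0.61, adjusted p = 0.0281 in cKO and log2 1.98 ± 0.60, adjusted p = 0.105 in WT), and in IL the genotypes overlapped through WT IL C (log2 0.89 ± 0.58). Cox6b1, which lies on the intermembrane side, was at 16.6, 5.85 and 4.4 CPM in CL and 6.53, 19.8 and 57.3 CPM in IL of WT. In cKO, Cox6b1 was at 4.69, 6.59 and 7.03 CPM in CL and 56.6, 29.6 and 49.9 CPM in IL. Its cKO IL libraries were at least 4 times each cKO CL library (log2 2.89 ± 0.73, adjusted p = 0.0337). Cox7b (chrX:106015700-106022450) was at 24.6, 1.2 and 18.8 CPM in CL and 3.85, 13.7 and 171 CPM in IL of WT. In cKO, Cox7b was at 2.48, 8.51 and 8.82 CPM in CL and 83.5, 75.5 and 127 CPM in IL. It passed in cKO (log2 3.85 ± 1.03, adjusted p = 0.0416), with WT CL A and WT CL C above WT IL A and WT IL B, and in CL it had the lowest p of complex IV among members with a lower level in cKO (log2 −1.17 ± 0.94). Cox6c was at 40.5, 5.4 and 0.293 CPM in CL and 19.9, 34 and 547 CPM in IL of WT. In cKO, Cox6c was at 18, 18.4 and 20.5 CPM in CL and 171, 309 and 399.5 CPM in IL. The level of 547 CPM in WT IL C was the highest of the 12 libraries, and the cKO libraries did not overlap (log2 3.95 ± 1.08, adjusted p = 0.0448, against log2 3.67 ± 1.07, adjusted p = 0.0948 in WT).

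Cox5a, a subunit on the matrix side, was at 16.1, 3.6 and 5.87 CPM in CL and 4.78, 14.7 and 63.6 CPM in IL of WT. In cKO, Cox5a was at 3.82, 9.33 and 12.1 CPM in CL and 52.2, 56.9 and 41.3 CPM in IL. It did not overlap in cKO and did not pass (log2 2.57 ± 0.78, adjusted p = 0.0674). Cox5b, Cox6a1, Cox7a2, Cox7c and Cox8a were likewise separate in cKO without passing, at log2 2.72, 2.53, 2.30, 1.54 and 2.83 and adjusted p from 0.0608 (Cox5b) to 0.232 (Cox7c). Cox7a2l was at 10.1, 18.6 and 28.8 CPM in CL and 22.9, 28.9 and 29.3 CPM in IL of WT. In cKO, Cox7a2l was at 9.65, 12.5 and 18.2 CPM in CL and 74.6, 22.4 and 36 CPM in IL. WT IL and WT CL overlapped for it, and it had the lowest p of complex IV in the interaction among members leaning towards cKO (log2 1.21 ± 0.81, adjusted p = 0.99998).

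Of the paralogues and their partners, Cox6a1 was at 22.1, 2.25 and 10.3 CPM in CL and 6.12, 20.4 and 74.4 CPM in IL of WT. In cKO, Cox6a1 was at 6.37, 8.84 and 18.1 CPM in CL and 76.7, 50.2 and 65.8 CPM in IL. Cox7a2 was at 2.61, 2.4 and 3.81 CPM in CL and 5.3, 6.63 and 21.6 CPM in IL of WT. In cKO, Cox7a2 was at 2.75, 4.78 and 2.71 CPM in CL and 17.5, 13.9 and 18.9 CPM in IL. Cox8a was at 34, 8.1 and 0 CPM in CL and 13.3, 28.4 and 154 CPM in IL of WT. In cKO, Cox8a was at 12.5, 22.4 and 17.8 CPM in CL and 106, 118 and 150.4 CPM in IL. All 3 were higher in every cKO IL than in every cKO CL library, and in WT this held for Cox7a2 alone. Cox4i2 was at 6.12, 3.3 and 0 CPM in CL and 3.73, 1.51 and 0.541 CPM in IL of WT. In cKO, Cox4i2 was at 4.82, 10.05 and 1.32 CPM in CL and 1.41, 3.08 and 3.18 CPM in IL. Cox6a2 was at 0, 5.1 and 0 CPM in CL and 2.45, 2.95 and 0.0601 CPM in IL of WT. In cKO, Cox6a2 was at 4.29, 0.384 and 1.72 CPM in CL and 4.84, 1.9 and 6.61 CPM in IL. Cox7a1 was at 0.97, 4.8 and 0 CPM in CL and 1.69, 4.13 and 4.15 CPM in IL of WT. In cKO, Cox7a1 was at 4.22, 3.29 and 2.16 CPM in CL and 2.49, 3.82 and 4.04 CPM in IL. For these 3 the hemispheres overlapped in both genotypes.

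The paralogue sets were compared as CPM per kilobase of exon, with group means ± SD (n = 3). The length is that of all annotated exons of a gene joined and not that of the transcript expressed. An order between genes therefore depends on this length. Cox4i1 was at 8.27 ± 1.88 in CL and 32.7 ± 30.9 in IL of WT, and 10.3 ± 2.27 in CL and 60.4 ± 17.1 in IL of cKO. Its paralogue Cox4i2, known from lung and from low oxygen, was at 3.98 ± 3.88 in CL and 2.45 ± 2.07 in IL of WT, and 6.85 ± 5.57 in CL and 3.24 ± 1.27 in IL of cKO. Cox4i1 exceeded Cox4i2 most in IL, and Cox4i2 had no higher mean in IL in either genotype. Cox6a1 was at 16.4 ± 14.2 in CL and 47.9 ± 51.3 in IL of WT, and 15.8 ± 8.8 in CL and 91.5 ± 19 in IL of cKO, and the muscle paralogue Cox6a2 was at 2.5 ± 4.33 in CL and 2.67 ± 2.27 in IL of WT, and 3.13 ± 2.92 in CL and 6.54 ± 3.5 in IL of cKO. The widely expressed Cox6a1 had the higher mean in all 4 groups. Cox6b1 was at 12.6 ± 9.38 in CL and 39.4 ± 37.2 in IL of WT, and 8.62 ± 1.75 in CL and 64.1 ± 19.9 in IL of cKO. The testis paralogue Cox6b2 was at 4.22 ± 6.07 in CL and 3.84 ± 1.5 in IL of WT, and 3.54 ± 0.142 in CL and 2.05 ± 0.621 in IL of cKO, again below its partner in all 4 groups by mean. Cox7a2 was at 3.12 ± 0.809 in CL and 11.8 ± 9.57 in IL of WT, and 3.61 ± 1.25 in CL and 17.8 ± 2.74 in IL of cKO. The muscle paralogue Cox7a1 was at 3.59 ± 4.74 in CL and 6.21 ± 2.64 in IL of WT, and 6.03 ± 1.93 in CL and 6.45 ± 1.57 in IL of cKO, above Cox7a2 in CL and below it in IL by mean. In CPM, not divided by length, Cox7a1 was below Cox7a2 in CL too (means of 1.92 against 2.94 in WT and 3.22 against 3.41 in cKO). Cox7a2l, whose product is a supercomplex factor, was at 13 ± 6.3 in CL and 18.3 ± 2.41 in IL of WT, and 9.1 ± 2.95 in CL and 29.98 ± 18.3 in IL of cKO. Cox7b was at 12.2 ± 10.04 in CL and 51.7 ± 77.1 in IL of WT, and 5.44 ± 2.94 in CL and 78.6 ± 22.9 in IL of cKO, with the testis paralogue Cox7b2 at 1.2 ± 2.08 in CL and 0.0979 ± 0.0195 in IL of WT, and 3.26 ± 2.31 in CL and 0.435 ± 0.372 in IL of cKO. Cox7b had the higher mean throughout. Cox8a was at 22.7 ± 28.7 in CL and 105 ± 124 in IL of WT, and 28.4 ± 7.98 in CL and 202 ± 37 in IL of cKO. Cox8b, a muscle paralogue, was at 1.66 ± 1.5 in CL and 2.63 ± 1.93 in IL of WT, and 1.99 ± 1.26 in CL and 1.37 ± 1.4 in IL of cKO. Cox8c, a testis paralogue, was at 6.22 ± 10.8 in CL and 0.934 ± 0.955 in IL of WT, and 1.69 ± 1.37 in CL and 0.594 ± 0.664 in IL of cKO. Cox8a had the highest mean of its set in each group, although WT CL C had 0 counts of it.

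Cox7b2 had the lowest p among members lower in IL. It was at 0, 1.95 and 0 CPM in CL and 0.0583, 0.0409 and 0.0601 CPM in IL of WT. In cKO, Cox7b2 was at 3.15, 0.714 and 1.44 CPM in CL and 0.433, 0.0296 and 0.245 CPM in IL. Its cKO IL libraries were all below its cKO CL libraries (log2 −2.87 ± 1.90, adjusted p = 0.318 by edgeR, called lower by voom at adjusted p = 0.0394), and its levels in WT CL rested on 1 library with 2 at 0. Cox6b2 was at 12.4, 1.65 and 0 CPM in CL and 5.54, 2.37 and 4.87 CPM in IL of WT. In cKO, Cox6b2 was at 3.95, 4.06 and 3.75 CPM in CL and 2.995, 1.63 and 2.17 CPM in IL. It had the lowest p of complex IV among members with a lower level in cKO than in WT of IL (log2 −0.91 ± 1.19). Cox8b was at 1.04, 0.75 and 0 CPM in CL and 1.75, 0.614 and 0.481 CPM in IL of WT. In cKO, Cox8b was at 1.14, 0.768 and 0.24 CPM in CL and 0.289, 1.07 and 0.122 CPM in IL. Cox8c was at 0, 8.55 and 0 CPM in CL and 0.874, 0.409 and 0 CPM in IL of WT. In cKO, Cox8c was at 1.07, 0.0549 and 1.2 CPM in CL and 0.0722, 0.622 and 0.122 CPM in IL. In the interaction Cox8b leaned towards WT (log2 −1.12 ± 2.37). Levels this low come from few counts, and the groups of both genes overlapped in every comparison, so that no change was detectable at this depth.

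Complex V had the most calls in cKO, with 9 of 16 members higher in IL (all genes 2.94%, the more abundant protein-coding genes 10.1%). They were 3 of the 5 genes of the catalytic head and central stalk, 4 of the 4 genes of the peripheral stalk, 2 of the 3 small membrane subunits and 0 of the 3 genes of the c ring. The medians of these groups were log2 2.35, 3.06, 2.13 and 2.17, and differences between the groups were not tested. Atp5a1, the alpha subunit of the head, was at 286, 137 and 73.9 CPM in CL and 206, 304 and 752 CPM in IL of WT. In cKO, Atp5a1 was at 106, 172 and 175 CPM in CL and 845, 645 and 586 CPM in IL. It was the most abundant member by mean CPM in each group. Its cKO hemispheres were separate (log2 2.20 ± 0.54, adjusted p = 0.0317) and its WT hemispheres overlapped (log2 1.34 ± 0.53, adjusted p = 0.19). Atp5b, the beta subunit that carries the catalytic sites (chr10:128083273-128090391), was at 114, 46.2 and 61 CPM in CL and 72.5, 125 and 361 CPM in IL of WT. In cKO, Atp5b was at 50.9, 90.5 and 80.3 CPM in CL and 446, 372 and 309 CPM in IL. It passed in cKO (log2 2.35 ± 0.55, adjusted p = 0.027) and in IL stood higher in cKO than in WT IL A and B but not separate from WT IL C. Atp5c1, the gamma subunit of the rotating stalk, had group means of 19.1 ± 11.5 CPM in CL and 74.2 ± 71.2 CPM in IL of WT, and 21.6 ± 3.33 CPM in CL and 121 ± 22.1 CPM in IL of cKO. It passed in cKO (log2 2.49 ± 0.64, adjusted p = 0.0354), and Atp5d and Atp5e did not (log2 1.71 ± 0.62, adjusted p = 0.116 and log2 2.70 ± 0.85, adjusted p = 0.0735).

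The peripheral stalk holds the head still against the rotor. Atp5j, its F6 subunit (chr16:84827866-84835625), was at 32.8, 6.6 and 15 CPM in CL and 10.5, 49.2 and 308 CPM in IL of WT. In cKO, Atp5j was at 17.4, 20.5 and 17.7 CPM in CL and 183, 202 and 307 CPM in IL. It had the lowest p of all 47 members in cKO (log2 3.64 ± 0.82, adjusted p = 0.0208), with every cKO IL library at 182.8 CPM or more and every cKO CL library at 20.5 CPM or less. Atp5h, subunit d, was at 59, 19.8 and 78.3 CPM in CL and 38.3, 78 and 609.8 CPM in IL of WT. In cKO, Atp5h was at 31.9, 40.9 and 49.7 CPM in CL and 271.8, 360.2 and 377 CPM in IL. It was separate in cKO (log2 3.04 ± 0.74, adjusted p = 0.0293), while WT CL C stood above WT IL A and WT IL B. Atp5o, the oligomycin sensitivity protein at the tip of the stalk, was at 3.43, 3.45 and 0 CPM in CL and 5.19, 16.4 and 52.7 CPM in IL of WT. In cKO, Atp5o was at 7.97, 5.6 and 4.43 CPM in CL and 72.2, 38.2 and 41.3 CPM in IL. Both genotypes were without overlap, with log2 3.08 ± 0.85, adjusted p = 0.0466 in cKO and log2 3.35 ± 0.88, adjusted p = 0.071 in WT, and in CL it was higher in cKO without passing (log2 1.31 ± 0.82, adjusted p = 0.9996). Atp5f1, subunit b, was at 21.4, 9.75 and 49 CPM in CL and 13.5, 28.4 and 105 CPM in IL of WT. In cKO, Atp5f1 was at 12.3, 13.9 and 13.7 CPM in CL and 103, 69.98 and 77.2 CPM in IL. It passed in cKO (log2 2.65 ± 0.67, adjusted p = 0.0346), and in CL it leaned towards WT (log2 −0.998 ± 0.65), with WT CL C the highest CL library.

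The small membrane subunits Atp5k (subunit e) and Atp5j2 (subunit f) passed in cKO, and Atp5l (subunit g) did not (log2 1.81 ± 0.64, adjusted p = 0.107). Atp5k, whose promoter window holds the NRF1 and ETS letters printed above, was at 56.8, 5.4 and 27 CPM in CL and 7.81, 18.9 and 351 CPM in IL of WT. In cKO, Atp5k was at 11.1, 14.9 and 11.5 CPM in CL and 56.9, 160.2 and 232 CPM in IL. Its cKO hemispheres were separate (log2 3.58 ± 0.99, adjusted p = 0.0472), and per kilobase it had the highest mean of all members in cKO IL, 243 CPM per kilobase. Atp5j2 was at 15.7, 18.9 and 15.3 CPM in CL and 15, 20.3 and 48.1 CPM in IL of WT. In cKO, Atp5j2 was at 13.5, 13.1 and 11.7 CPM in CL and 69.1, 43 and 55.4 CPM in IL. Its hemispheres were separate in cKO (log2 2.13 ± 0.55, adjusted p = 0.0366) and overlapped in WT, and in CL its cKO libraries were all below its WT libraries (log2 −0.38 ± 0.54). Of the 12 called members with a promoter window used here, 1 held the NRF1 letters, 5 the ETS letters and 3 the YY1 letters, and some held none. The called member Atp5a1 was not among the 12, because windows on its chromosome were left out. Among all 36 members with a window these numbers were 7, 12 and 3. The windows printed above therefore do not stand for all called members.

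The genes Atp5g1, Atp5g2 and Atp5g3 encode the same mature c subunit with different targeting peptides. Atp5g1 was at 21.6, 5.998 and 2.35 CPM in CL and 11.8, 12.6 and 45.5 CPM in IL of WT. In cKO, Atp5g1 was at 8.58, 12.7 and 10.4 CPM in CL and 22.7, 26.4 and 20.9 CPM in IL. Atp5g2 was at 10.8, 5.85 and 15 CPM in CL and 9.09, 15.3 and 42.1 CPM in IL of WT. In cKO, Atp5g2 was at 6.77, 5.93 and 8.86 CPM in CL and 28.3, 41.8 and 33.7 CPM in IL. Atp5g3 was at 16.1, 6.6 and 0 CPM in CL and 10.3, 24 and 70.3 CPM in IL of WT. In cKO, Atp5g3 was at 6.3, 18.4 and 15.6 CPM in CL and 66.2, 55.9 and 59.6 CPM in IL. The hemispheres of all 3 overlapped in WT. In CPM per kilobase, Atp5g1 was at 2.03 ± 2.09 in CL and 4.74 ± 3.92 in IL of WT, and 2.15 ± 0.419 in CL and 4.75 ± 0.569 in IL of cKO. Atp5g2 was at 6.29 ± 2.72 in CL and 13.2 ± 10.5 in IL of WT, and 4.29 ± 0.902 in CL and 20.6 ± 4.05 in IL of cKO. Atp5g3 was at 3.47 ± 3.71 in CL and 16 ± 14.4 in IL of WT, and 6.17 ± 2.91 in CL and 27.8 ± 2.38 in IL of cKO. By this measure Atp5g3 had the highest mean in both IL groups, and Atp5g1 the lowest in all 4 groups. The order of Atp5g1 rests on its exon length of 4.912 kb, against 1.675 kb for Atp5g2 and 2.181 kb for Atp5g3. By mean CPM, Atp5g1 was above Atp5g3 in WT CL (9.99 against 7.57). It was also above Atp5g2 in cKO CL (10.5 against 7.19) and WT IL (23.3 against 22.2). In cKO all 3 were higher in every IL than in every CL library, and none passed (log2 2.26 ± 0.65, adjusted p = 0.0546 for Atp5g2, the member nearest to the threshold from outside, log2 2.17 ± 0.86, adjusted p = 0.143 for Atp5g3 and log2 1.14 ± 0.72, adjusted p = 0.299 for Atp5g1). Atp5s was at 0.448, 1.95 and 0 CPM in CL and 1.92, 1.19 and 2.58 CPM in IL of WT. In cKO, Atp5s was at 2.55, 1.76 and 2.75 CPM in CL and 2.06, 0.948 and 2.14 CPM in IL. Its hemispheres overlapped in both genotypes (log2 −0.45 ± 1.37, adjusted p = 0.821 in cKO), and its interaction was log2 −1.66 ± 1.97.

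**Figure D5:**
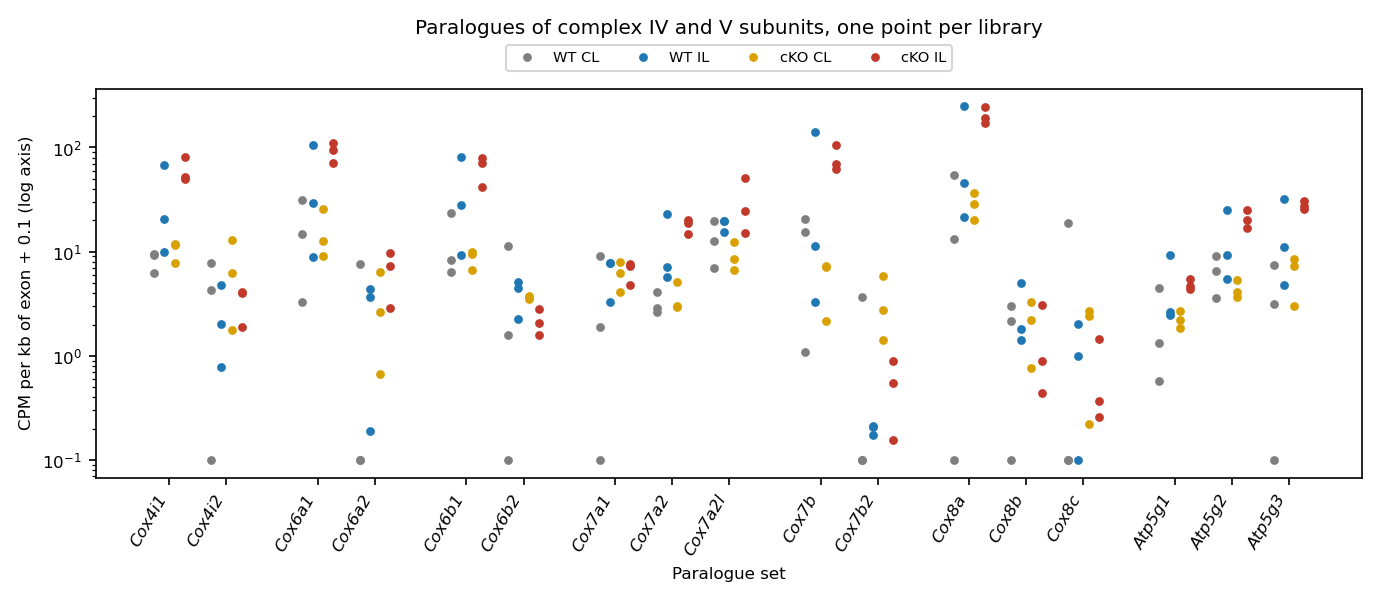
Level of each paralogue in CPM per kilobase of exon (y axis, log scale, 0.1 added to show libraries at 0), with 1 point per library. The cKO IL points of Cox4i1, Cox6a1, Cox6b1, Cox7a2, Cox7a2l, Cox7b, Cox8a and the 3 Atp5g genes lie above their cKO CL points, and those of Cox4i2, Cox6a2, Cox7a1, Cox8b and Cox8c overlap theirs, and those of Cox6b2 and Cox7b2 lie below theirs.

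Genes that work with these complexes were counted from lists. Among assembly factors, 0 of 4 for complex II, 0 of 6 for complex III, 2 of 21 tested for complex IV and 1 of 4 for complex V (with its inhibitor) were called higher in IL of cKO, 0 were lower, and 0 of these assembly factors passed in WT. The 2 of 21 are 9.52%, near the 10.1% of the more abundant protein-coding genes called higher. Coa5 and Pet100, which act in the assembly of complex IV, both passed in cKO. Coa5 had group means of 20.5 ± 20.7 CPM in CL and 76.7 ± 60.7 CPM in IL of WT, and 20.9 ± 3.76 CPM in CL and 144 ± 4.86 CPM in IL of cKO (log2 2.79 ± 0.71, adjusted p = 0.0343). The means of Pet100 were 24.7 ± 10.8 CPM in CL and 64.7 ± 74.3 CPM in IL of WT, and 12.8 ± 3.93 CPM in CL and 80.1 ± 17.9 CPM in IL of cKO (log2 2.65 ± 0.67, adjusted p = 0.0332). Atpif1, the inhibitor that binds ATP synthase when it would run in reverse, had means of 35.2 ± 14.1 CPM in CL and 117 ± 146 CPM in IL of WT, and 29.6 ± 10.2 CPM in CL and 184 ± 40.6 CPM in IL of cKO (log2 2.63 ± 0.70, adjusted p = 0.0392). Nearest in the other assembly lists were Uqcc2 (log2 2.17 ± 0.68, adjusted p = 0.0731) and Uqcc3 (log2 1.56 ± 0.75, adjusted p = 0.207) for complex III, and Sdhaf2 (log2 1.48 ± 0.75, adjusted p = 0.226) and Sdhaf4 (log2 2.40 ± 1.81, adjusted p = 0.368) for complex II.

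A few subunits of complexes IV and V are left out by the naming rule. Usmg5 (DAPIT) and 2010107E04Rik (the 6.8 kDa proteolipid), both associated with ATP synthase, passed in cKO (log2 3.96 ± 1.10, adjusted p = 0.0477 and log2 3.52 ± 0.98, adjusted p = 0.0478), and Ndufa4, a complex IV subunit despite its name, did not (log2 3.12 ± 1.07, adjusted p = 0.0982). Among carriers, the phosphate carrier Slc25a3 and the ADP/ATP translocase Slc25a5 passed (log2 1.82 ± 0.51, adjusted p = 0.0498 and log2 2.60 ± 0.59, adjusted p = 0.0217), and cytochrome c, Cycs, did not (log2 2.09 ± 0.63, adjusted p = 0.0659). Of 7 transcriptional regulators of mitochondria 1 passed, or 14.3%, near the 10.1% of the more abundant protein-coding genes called higher. Their median log2 in cKO was 0.23, with 4 of the 7 above 0. Gabpa, the DNA-binding subunit of GABP, was at 26.4, 14.7 and 15.8 CPM in CL and 15.2, 31.9 and 89 CPM in IL of WT. In cKO, Gabpa was at 19, 15.5 and 24.1 CPM in CL and 122, 66.1 and 66.5 CPM in IL. All cKO IL libraries of Gabpa were above all cKO CL libraries (log2 2.12 ± 0.59, adjusted p = 0.0483 in cKO and log2 1.25 ± 0.58, adjusted p = 0.256 in WT). Ppargc1a, a coactivator of mitochondrial genes, was at 2.69, 8.7 and 2.93 CPM in CL and 7.17, 4.79 and 1.98 CPM in IL of WT. In cKO, Ppargc1a was at 7.91, 4.78 and 9.66 CPM in CL and 2.67, 4.09 and 3.34 CPM in IL. Its cKO IL libraries were all below its cKO CL libraries without passing (log2 −1.14 ± 0.92, adjusted p = 0.394), and its WT hemispheres overlapped. Of the 8 list genes called in cKO, 0 passed when cKO CL D, cKO CL E, cKO CL F or cKO IL D was left out, 1 without cKO IL E or cKO IL F, and 2 without WT CL B, and the block lost 4 (Coa5, Usmg5, Slc25a3 and Gabpa).

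The mitochondrial genome encodes further subunits of complexes III to V. Of 6 such genes 5 were tested, 0 were called in any comparison, 1 gene was lower in cKO IL than in WT IL at an unadjusted p under 0.05 and 0 in the other comparisons, and their median log2 of IL over CL was −0.26 in WT and 0.20 in cKO. Reads from mitochondrial DNA had been removed before alignment, so these values rest on what was left. The 38 nuclear subunits of complex I, counted the same way, had a median log2 of 2.31 in cKO and 1.71 in WT, beside 2.27 and 1.53 for complexes II to V. In cKO 4 were called higher (Ndufs6, Ndufb7, Ndufa13 and Ndufb10, log2 2.39 to 3.14), or 10.5%, near the 10.1% of the more abundant protein-coding genes, and in WT 1 (Ndufc2, log2 5.57 ± 1.29, adjusted p = 0.0487), whose hemispheres overlapped and which the block lost (adjusted p = 0.166). At an unadjusted p under 0.05 (edgeR), 30 of the 38 were higher in cKO and 18 in WT, beside 37 and 27 of the 47 members. The background for these counts was 10.5% of all genes in cKO and 9.53% in WT. The difference between complex I and complexes II to V was not tested.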

How the data were processed

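The deposited table held raw counts per gene, which the authors made by trimming reads, removing ribosomal and mitochondrial DNA reads, alignment (STAR, version 2.5.3a, build mm10) and counting in Partek Flow (version 8.0). The annotation release and the strand setting of the counting are not given in the sources used here. Reads of overlapping antisense genes or of near-identical copies may therefore be shared: 7 pseudogene rows named after members held 0.0641% to 10% of their parents' counts. The libraries came from a stranded total RNA kit on HiSeqX. The authors tested with DESeq2. The counts deposited were fitted here with edgeR 4.0.16 (R 4.3.3, limma 3.58.1): filterByExpr over 4 groups, TMM scaling, 12 libraries in 1 quasi-likelihood fit, 5 contrasts, Benjamini-Hochberg adjustment over 35674 genes. CPM are TMM-scaled, and ± is the SD of 3 libraries for a level and the SE for a log2 fold change. Depth, from 2091512 to 47256174 counts, limits the precision of low genes most in WT CL C. DESeq2 1.42.0, voom with quality weights, other scalings and filters, thinning, a replicate block and leave-one-out fits were the alternatives. Scripts were tested on simulated data. The targeted gene and 1 marker gene are not reported here.

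All 47 members are accounted for. Values in every library are given for the lowest p of a complex in each direction and comparison, for up to 4 called members of a complex, for core subunits and for paralogue sets. Of the other lists of working partners, called genes are named, otherwise those of lowest p. Members and lists were chosen with earlier results of these data known, so no count over them is independent support. Exon lengths and positions came from GENCODE vM21 (all 47 found), promoter windows from RefSeq GRCm38.p6. The labels number the libraries of a group but do not tie the numbers in the column headers to animals. The study gives independent animals as its replicates and took both hemispheres of a brain, so equal numbers may mark 1 mouse, which no source states. P-values measure only the spread between these libraries.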

Additional observations from a re-analysis of the deposited data

How the results depend on the processing

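Direction held throughout for both stroke medians, and counts of calls did not. In cKO, 17 members called higher became 9 with RLE scaling (1.76% of all genes called higher), 2 with total-count scaling (0.844%), 0 with TMM from genes of at least 50 CPM (0.636%), 28 with DESeq2 (5.41%), 39 with voom (14.8%, and 1 lower against 28.5% of all genes), 35 with no filter on low counts (4.76%), 39 with the 6 libraries of the comparison alone (19.1%) and 0 of 44 when thinned (0.866%). The cKO median was 1.41 with total-count scaling and 1.43 with TMM from genes of at least 50 CPM. In WT, 1 called became 0 with RLE scaling, total-count scaling, TMM from genes of at least 50 CPM, voom, at least 10 counts in every library (27 members), protein-coding genes only, 6 libraries (45 members), thinning (44 members) and the replicate block, 13 with no scaling (5.92% of all genes), 7 with DESeq2 (3.75%) and 15 with no filter (2.33%). The WT median was 2.49 with no scaling and 0.69 with TMM from genes of at least 50 CPM. In IL, voom called 33 members higher in cKO (7.23% of all genes). The CL genotype median was 1.03 with no scaling. The scalings moved the median of all genes (in cKO from −2.30 to −0.57), and relative to it the members' median was 3.50 to 3.72 higher in cKO, 1.42 to 1.87 in WT, 0.92 to 1.09 for genotype in IL and 0.22 to 0.48 lower for genotype in CL. These gaps shrank with the genes kept: with at least 10 counts in every library (27 members) they were 2.06 in cKO, 1.26 in WT and 0.56 for genotype in IL, and thinned (44 members) 2.25, 1.54 and 0.497. The cause of these shifts was not tested.

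With single libraries left out, calls ran from 0 to 38 in cKO (all genes 0% to 10.8% higher) and from 0 to 11 in WT (all genes 0.0127% to 2.46%). They were 0 otherwise. The medians ran from 2.20 to 2.65 in cKO, 0.49 to 2.35 in WT, 0.33 to 1.78 and −0.20 to 0.61 for genotype in IL and CL, and 0.14 to 1.57 for the interaction. Header numbers shared by CL and IL libraries were checked by correlating deviations from the group means. In cKO, shared numbers gave 0.21, 0.06 and 0.07, all above the −0.12 to 0.05 of unlike numbers, the nearest by a narrow margin. In WT, shared numbers gave −0.13, 0.15 and −0.06, within the −0.19 to 0.22 of unlike numbers. The check thus leaned towards pairing in cKO and not in WT, and does not settle it. A replicate block on those numbers, chosen after seeing the data, called 14 members in cKO (5 of the 17 lost, 2 gained), 0 in WT and 0 for the interaction. The planned block on the labels' replicate numbers was not run, because the columns do not carry those numbers. Low depth limits WT CL most, where 15 members had 0 counts in 1 library.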
